A study of Mus musculus with 4 samples.

Results

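The Slc25 genes encode the mitochondrial carrier family, small membrane proteins that exchange metabolites, nucleotides, cofactors and ions across the inner mitochondrial membrane. Genes with a symbol of the form Slc25a and a number were taken if they held 20 or more counts summed over the 4 libraries, leaving out Slc25a37 and Slc25a38. This gave 39 of the 35927 gene rows with counts. The table held 44 such symbols in all; beside the left-out pair, Slc25a48, Slc25a41 and Slc25a34 fell short, with 18, 4 and 2 counts. The scarcest member taken was Slc25a2, with 27 counts. The name mitochondrial carrier holds for most members by what is known of them, but Slc25a17 is a peroxisomal protein and Slc25a46 sits in the outer mitochondrial membrane.

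Polyadenylated RNA was sequenced from mouse fetal liver cells of the C57BL/6 background at E13.5, the stage in embryonic days. The cells had been sorted as CD71+ and TER119-: they carried the transferrin receptor and lacked the TER119 antigen, which appears as red cells mature. The mutant group came from Rcor1-/- embryos, with both copies mutated of the gene for the CoREST scaffold of a demethylase and deacetylase complex. The control group joined Rcor1+/+ and Rcor1+/- embryos, in unknown proportion. Each group had 2 libraries, described by the submitters as biological replicates, and since several livers went into each pool, the spread is between pools and not between embryos. The libraries held 25186819 and 15053229 counts in mutants and 26892375 and 22817080 in controls. Rcor1 itself had 77.9 and 78.9 CPM in mutants, against 160 and 175 CPM in controls, where CPM is the depth-normalised count with TMM scaling. It was 0.469 times the control level in mutants and not at 0. Of the sort's own markers and other erythroid genes, 6 of 7 were lower in the mutant and Kit did not pass, with a summed level of 2722 and 2678 CPM in mutants and 3928 and 4079 CPM in controls. By the same test, given below, 29.2% of all 13140 genes tested were lower and 28.3% higher.

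Carriers of this family share a fold of repeated pairs of membrane helices and are made in the cytosol, from which the TOM and TIM22 complexes bring them into the inner membrane. In red cell precursors they are known above all for haem synthesis: Slc25a37 (mitoferrin 1) brings in iron and Slc25a38 glycine, and these were the genes left out here. The other carriers link the citric acid cycle, amino acid metabolism, nucleotide pools and cofactor supply of the matrix to the cytosol, which a dividing progenitor draws on.

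The carriers moved in both directions in Rcor1 mutant progenitors, mostly by modest amounts. The largest falls were those of the dicarboxylate carrier Slc25a10, the coenzyme A carrier Slc25a42, the ATP-Mg/phosphate carrier Slc25a23 and the citrate carrier Slc25a1. The largest rises were those of Slc25a43 and Slc25a27, scarce genes with 77 and 38 counts in all, and of Slc25a45, with 419. Of the 39 members, 37 passed the filter on low counts and were tested; Slc25a2 and Slc25a31 were too scarce. By edgeR's quasi-likelihood test at a Benjamini-Hochberg adjusted p of 0.05 over all genes, 9 members were higher and 13 lower in mutants, and 15 did not pass. The count of higher members was 5 without mutant replicate 1 and 5 with DESeq2. The calls covered 59.5% of the tested members, against 57.5% of the 13140 genes tested. By direction, 24.3% of tested members were higher and 35.1% lower, against 28.3% and 29.2% of all genes. These shares are near the background. Beyond 2-fold, 3 of the 37 tested members were called higher and 0 lower, where 11.7% and 1.8% of all genes were. Of the 3, Slc25a43 and Slc25a27 were so scarce in controls that they were tested only because mutants expressed them. Beyond 1.5-fold, the same 3 were called higher and Slc25a10, Slc25a42, Slc25a23 and Slc25a1 lower, where 16.8% and 6.83% of all genes were. The groups did not overlap for 28 of the 37 tested members (75.7%), against 77.9% of all genes.

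The median log2 fold change of mutant over control was -0.04 over the tested members and 0.01 over all genes. It depended on scaling: it was 0.04 with upper quartile scaling and 0.10 with library totals alone, and the median of all genes was 0.09 and 0.15 under the same scalings. In each of these 3 scalings the members' median lay below that of all genes, a difference that was not tested. With library totals alone 12 of the 37 tested members were called higher and 11 lower, where 5112 and 2553 of all 13140 genes tested were. The median absolute change was 0.29 over members and 0.32 over all genes. On the TMM scale the members summed to 2608 and 2548 CPM in mutants and 2994 and 2918 CPM in controls, and without Slc25a3, the most counted member, to 1982 and 1944 CPM in mutants and 2184 and 2111 CPM in controls. As shares of library totals they took 0.274% and 0.266% in mutant libraries and 0.285% and 0.279% in control libraries. Slc25a3 made up 24.0% and 23.7% of the members' counts in mutants and 27.0% and 27.7% in controls. Without Slc25a3 the share of library totals was 0.208% and 0.203% in mutants and 0.208% and 0.202% in controls. The remaining members were thus lower in both mutant libraries by TMM-scaled sums and overlapped between groups by library totals. In bulk libraries, fewer cells of a type and less RNA per cell cannot be told apart.

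**Figure D1:**
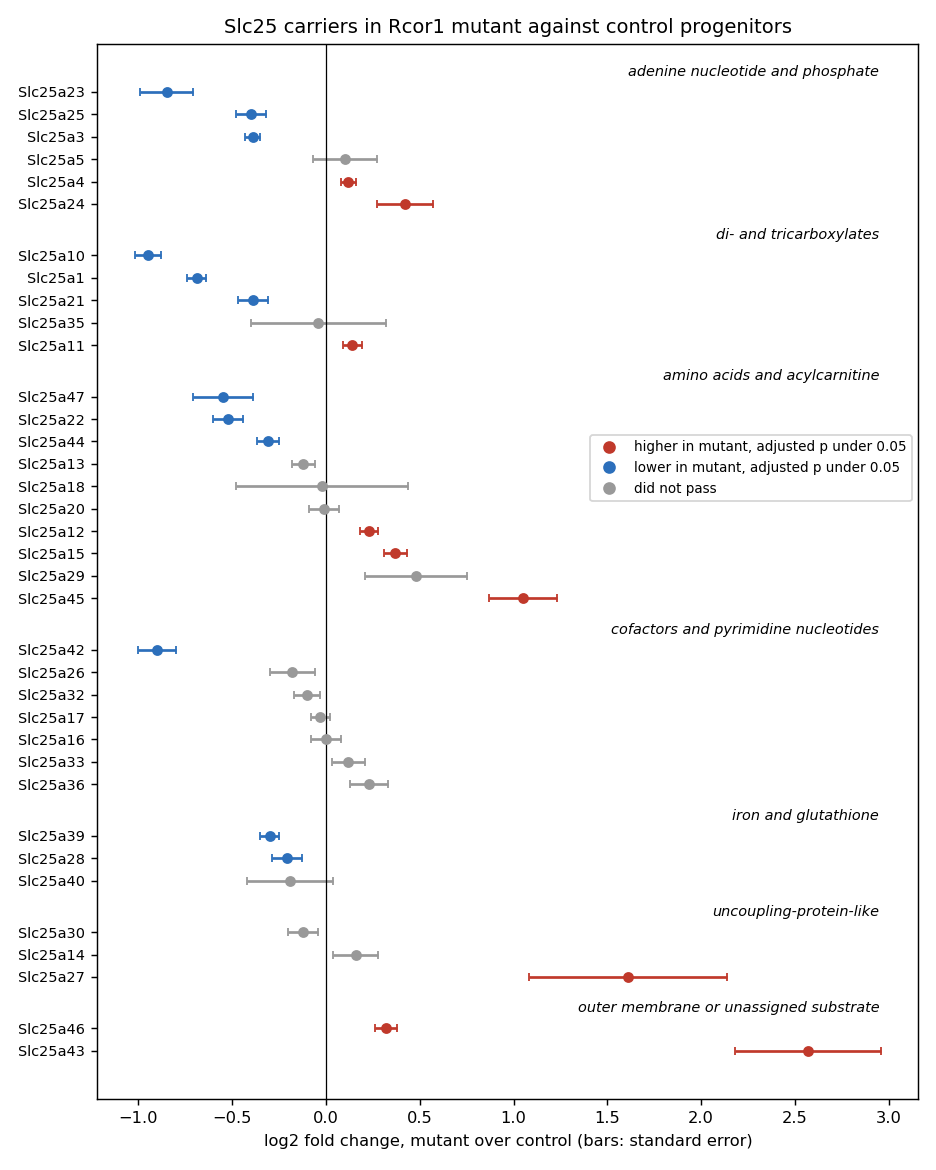
Log2 fold change of mutant over control (horizontal axis) for the tested Slc25 members reported here, grouped by what they carry; bars are standard errors from edgeR's fit and colours give the call. The members lower in mutants reach -0.95 (Slc25a10), and the 9 higher ones reach 2.57 (Slc25a43), which has a standard error of 0.39.

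Promoter windows are shown for the member that fell furthest, Slc25a10, and the member that rose furthest, Slc25a43, each with a second called member of the same direction whose window holds an E-box, Slc25a1 among the lower and Slc25a15 among the higher. The windows run from 250 bases before to 50 after a RefSeq transcript start on GRCm38.p6; the counts were made on mm9, whose coordinates are not used here. They lie at chr11:120491587-120491886 (plus strand) for Slc25a10, chr16:17928170-17928469 (minus) for Slc25a1, chrX:36743382-36743681 (plus) for Slc25a43 and chr8:22398228-22398527 (minus) for Slc25a15. Capitals mark the E-box CACGTG, a site for Myc and Usf proteins.
Slc25a10: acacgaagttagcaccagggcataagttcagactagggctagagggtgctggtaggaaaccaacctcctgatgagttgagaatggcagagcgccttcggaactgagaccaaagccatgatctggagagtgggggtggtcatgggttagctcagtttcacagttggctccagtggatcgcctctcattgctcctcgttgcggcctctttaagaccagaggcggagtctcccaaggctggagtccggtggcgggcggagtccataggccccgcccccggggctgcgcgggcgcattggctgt
Slc25a1: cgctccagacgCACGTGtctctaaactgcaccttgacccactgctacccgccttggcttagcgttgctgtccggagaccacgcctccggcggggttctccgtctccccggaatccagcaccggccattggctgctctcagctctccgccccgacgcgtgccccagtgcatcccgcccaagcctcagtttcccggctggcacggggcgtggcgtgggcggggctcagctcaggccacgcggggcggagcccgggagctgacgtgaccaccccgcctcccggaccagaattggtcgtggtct
Slc25a43: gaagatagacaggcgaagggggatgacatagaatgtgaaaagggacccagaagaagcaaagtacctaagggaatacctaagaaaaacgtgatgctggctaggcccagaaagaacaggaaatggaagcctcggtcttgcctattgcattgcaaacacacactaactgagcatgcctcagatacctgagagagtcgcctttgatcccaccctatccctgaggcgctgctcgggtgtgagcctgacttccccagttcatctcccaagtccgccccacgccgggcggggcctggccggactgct
Slc25a15: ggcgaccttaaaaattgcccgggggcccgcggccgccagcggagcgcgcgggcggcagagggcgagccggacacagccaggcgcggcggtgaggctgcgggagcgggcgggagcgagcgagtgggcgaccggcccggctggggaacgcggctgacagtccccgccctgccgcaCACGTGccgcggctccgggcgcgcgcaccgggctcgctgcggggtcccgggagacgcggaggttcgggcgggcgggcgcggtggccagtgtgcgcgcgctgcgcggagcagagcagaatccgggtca
Windows were on hand for 31 of the 39 members, 40 windows in all, and were searched on both strands. The E-box stood in 8 of the 40, belonging to 7 genes, against 7.15% of 32851 windows of all genes; the 7 were Slc25a1, lower in mutants, Slc25a15, higher, Slc25a13, Slc25a14, Slc25a33 and Slc25a36, which did not pass, and Slc25a31, not tested. The GATA motif AGATAA stood in 2 windows (5.0%, against 11.2% of all), those of Slc25a22 and Slc25a5. AATCAC, the core of the motif of Gfi1 proteins, which recruit CoREST, stood in 2 windows (5.0%, against 10.4%), those of Slc25a25 and Slc25a31. Neither of these letter runs was found in the 4 windows printed above. The member windows were richer in G and C, with a median of 59.7% against 52.7%, which bears on how often GC-rich letters occur; these counts are descriptions of letters.

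Carriers of di- and tricarboxylates, which pass intermediates of the citric acid cycle, held the largest called fall: 3 of 5 were lower, 1 was higher and 1 did not pass. Slc25a10, which exchanges malate and succinate for phosphate, had 48.1 and 43.9 CPM in mutants, against 90.8 and 87.3 CPM in controls. The mutant libraries were both far below the control libraries, and the log2 fold change was -0.95 ± 0.07 (standard error; adjusted p = 2.92e-09), a level 0.518 times that of controls. Slc25a1, which exports the citrate used for lipid synthesis, had 169 and 161 CPM in mutants, against 276 and 258 CPM in controls (-0.69 ± 0.05, adjusted p = 3.56e-09). Slc25a21, the carrier of longer oxodicarboxylates such as oxoadipate, had 58.3 and 55.4 CPM in mutants and 81.0 and 67.5 CPM in controls (-0.39 ± 0.08, adjusted p = 8.99e-04); here the controls differed from each other more than the mutants did. The 2-oxoglutarate carrier Slc25a11, a part of the malate-aspartate shuttle, was slightly higher, with 150 and 146 CPM in mutants and 138 and 131 CPM in controls (0.14 ± 0.05, adjusted p = 0.0291). Leaving out control replicate 2 ended the call (0.08), as did leaving out mutant replicate 1 (0.12) or mutant replicate 2 (0.16). The call also ended with DESeq2 (0.13, adjusted p = 0.106) and without a filter (0.10, 0.143). Slc25a35 had only 73 counts in all and a change of -0.04 ± 0.36. The group's summed level was 426 and 407 CPM in mutants and 587 and 545 CPM in controls.

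**Figure D2:**
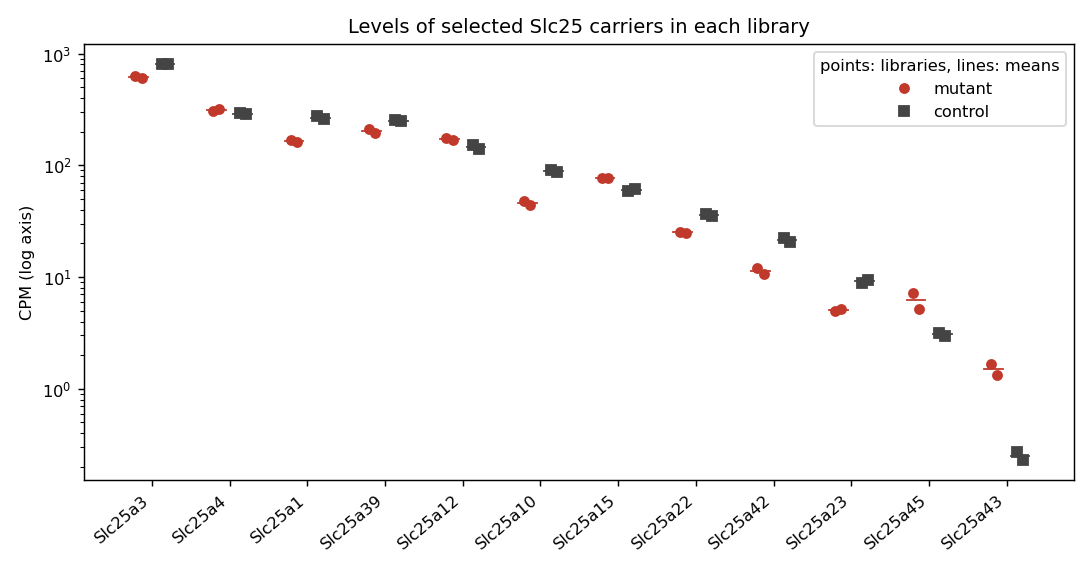
CPM on a log axis for 12 Slc25 members in each of the 2 mutant and 2 control libraries, with the group mean as a line. For each member drawn the mutant and control points do not overlap, from Slc25a3 (627 and 604 CPM in mutants, 809 and 807 CPM in controls) to Slc25a43, under 2 CPM in every library.

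Among the adenine nucleotide and phosphate carriers, which feed ADP and phosphate to the ATP synthase, 3 of 6 tested genes were lower, 2 were higher and 1 did not pass. Slc25a3, the phosphate carrier, was the most counted member, with 627 and 604 CPM in mutants, against 809 and 807 CPM in controls. Controls were nearly equal and both mutants lay well below them (-0.39 ± 0.04, adjusted p = 3.75e-07). Slc25a4, an ADP/ATP exchanger, had 309 and 320 CPM in mutants and 292 and 288 CPM in controls, a small rise (0.12 ± 0.04, adjusted p = 0.0318). The rise lost its call whichever library was left out, with 0.14, 0.10, 0.12 and 0.09 without mutant replicates 1 and 2 and control replicates 1 and 2. It also lost its call with DESeq2 (0.11, adjusted p = 0.0935) and without a filter (0.08, 0.206). Its size was 0.25 under library totals alone.

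The other ADP/ATP exchangers were nearly absent from the counts. Slc25a5, the form known from dividing cells, had 118 and 64 counts in mutants and 106 and 84 in controls (0.10 ± 0.17, adjusted p = 0.627), and made up 1.42% and 1.26% of the trio's counts in mutants and 1.40% and 1.32% in controls. In the GENCODE M21 transcripts 45.7% of its sequence words of 36 bases also occur in 12 other genes, pseudogenes of it among them, more than for any other member. The sources used here do not give how such reads were counted. Its level is therefore uncertain and its share cannot be read as the share of the protein. Slc25a31, known from the testis, had 7 and 3 counts in mutants and 10 and 10 in controls and was not tested.

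The ATP-Mg/phosphate carriers, which adjust the adenine nucleotide pool of the matrix and are regulated by calcium, diverged. Slc25a23 had 4.99 and 5.15 CPM in mutants, against 8.92 and 9.35 CPM in controls (-0.85 ± 0.14, adjusted p = 4.64e-05). Slc25a25 had 25.9 and 26.8 CPM in mutants, against 36.3 and 33.2 CPM in controls (-0.40 ± 0.08, adjusted p = 5.66e-04). Slc25a24 went the other way, with 5.97 and 6.49 CPM in mutants and 4.89 and 4.36 CPM in controls (0.42 ± 0.15, adjusted p = 0.0276). Slc25a24 no longer passed when mutant replicate 1 (0.49), mutant replicate 2 (0.37) or control replicate 2 (0.32) was left out. DESeq2 did not make the call either (0.42, adjusted p = 0.191). Within the trio's counts, Slc25a24 took 16.2% and 16.9% in mutants, with Wilson 95% intervals of which the lower bounds are 14.0 and 14.1, and 9.76% and 9.30% in controls, where the upper bounds are 11.5 and 11.2. Slc25a23 took 132 of 975 and 81 of 605 counts of the trio in mutants and 228 of 1281 and 204 of 1022 in controls, a smaller share in both mutant libraries, while Slc25a25 kept the largest share, 70.3% and 69.8% in mutants and 72.4% and 70.7% in controls. The intervals cover counting error only, and shares of 2 against 2 libraries cannot be tested below an exact permutation p of 0.33.

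The genes grouped here as carriers of amino acids and acylcarnitine were evenly split, with 3 higher, 3 lower and 4 that did not pass among 10 tested. The lower ones include the liver carrier Slc25a47, whose call DESeq2 did not make. The aspartate-glutamate carriers of the malate-aspartate shuttle come as a pair. Slc25a12 (aralar) had 176 and 167 CPM in mutants, against 153 and 140 CPM in controls (0.23 ± 0.05, adjusted p = 0.00147), and Slc25a13 (citrin) had 94.5 and 101 CPM in mutants and 107 and 105 CPM in controls (-0.12 ± 0.06, adjusted p = 0.0802; without a filter -0.16, adjusted p = 0.0209). Slc25a12 thus took 65.1% and 62.3% of the pair's counts in mutants and 58.8% and 57.1% in controls, and the lowest Wilson bound in mutants, 60.8, lay above the highest in controls, 60.0. The intervals cover counting error only and not the spread between pools. Those of the 2 mutant libraries did not overlap each other either (64.0 to 66.2 and 60.8 to 63.7). The shares are of counts, and Slc25a12 has the longer exons, 7342 bases against 3798 in GENCODE M21. Per kilobase of exon, Slc25a12 had 23.4 CPM in mutants and 19.9 CPM in controls. Slc25a13 had 25.7 CPM and 27.9 CPM, the higher level in both groups. The ornithine carrier Slc25a15 had 76.2 and 77.7 CPM in mutants, against 58.3 and 61.0 CPM in controls (0.37 ± 0.06, adjusted p = 9.16e-05). Slc25a45, whose substrate was long unassigned, had 7.22 and 5.22 CPM in mutants, against 3.17 and 2.98 CPM in controls (1.05 ± 0.18, adjusted p = 1.04e-04). Both mutant libraries lay above both controls, but they differed from each other, and the change was 0.76 without mutant replicate 1 and 1.23 without mutant replicate 2.

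The glutamate carrier Slc25a22 had 25.3 and 24.8 CPM in mutants, against 36.4 and 35.4 CPM in controls (-0.52 ± 0.08, adjusted p = 3.31e-05). Its paralog Slc25a18 had 17 and 6 counts in mutants and 10 and 16 in controls and did not pass. Slc25a44, a carrier of branched-chain amino acids, had 94.0 and 96.6 CPM in mutants and 125 and 111 CPM in controls (-0.31 ± 0.06, adjusted p = 2.95e-04). Slc25a20, which exchanges acylcarnitines for carnitine so that fatty acids can be oxidised, had 35.5 and 36.6 CPM in mutants and 36.1 and 36.3 CPM in controls, and its change was -0.01 ± 0.08 (adjusted p = 0.943). Slc25a29, a carrier of basic amino acids, had a change of 0.48 ± 0.27 on 162 counts and did not pass (adjusted p = 0.135).

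Slc25a47, known as a liver carrier, had 4.46 and 4.01 CPM in mutants, against 6.57 and 5.92 CPM in controls (-0.55 ± 0.16, adjusted p = 0.00604), a call that DESeq2 did not make (-0.56, adjusted p = 0.0791). Markers of hepatoblasts, the other main cells of the organ, went the other way: 8 of 10 were higher in mutants, 0 were lower and 2 did not pass. Among all genes tested, 28.3% were higher. The summed level of the markers was 1346 and 1349 CPM in mutants and 996 and 981 CPM in controls. The part of hepatoblasts in the change of any member was not tested.

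**Figure D3:**
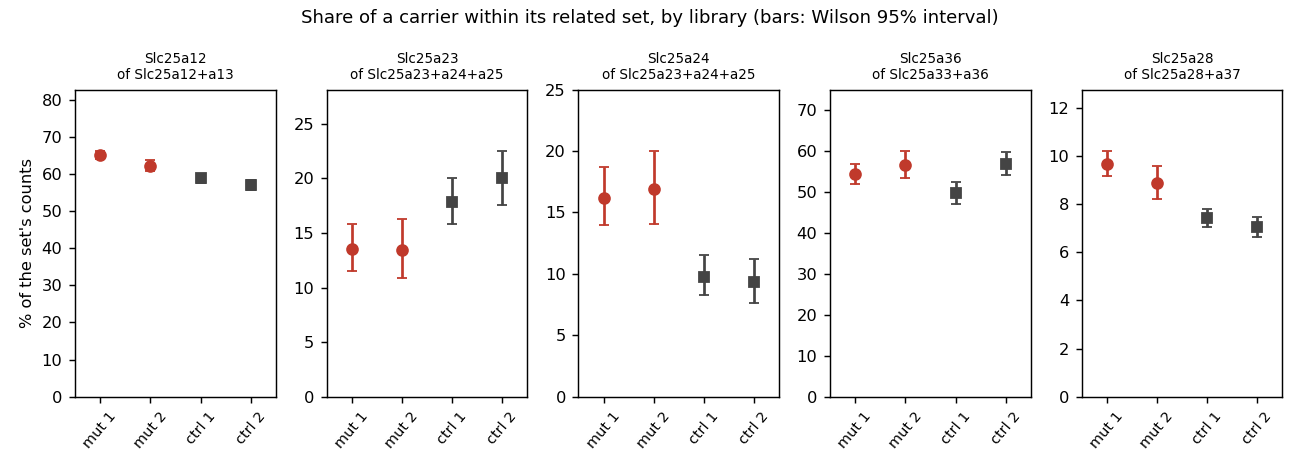
Share (%) of 1 carrier in the counts of its related set, in each mutant and control library, with Wilson 95% intervals for counting error. Slc25a12, Slc25a24 and Slc25a28 hold a larger share in both mutant libraries and Slc25a23 a smaller one; Slc25a36 overlaps between groups.

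Carriers of cofactors and pyrimidine nucleotides were the group with the fewest calls in relation to its size: 2 of 8 were lower, 0 higher and 6 did not pass. Slc25a42, which brings coenzyme A into the matrix, had 12.0 and 10.7 CPM in mutants, against 22.3 and 20.5 CPM in controls (-0.90 ± 0.10, adjusted p = 8.59e-07). The folate and flavin carrier Slc25a32 (-0.10 ± 0.07), the S-adenosylmethionine carrier Slc25a26 (-0.18 ± 0.12), the peroxisomal Slc25a17 (-0.03 ± 0.05) and Slc25a16 (0.00 ± 0.08) did not pass. Of the pyrimidine nucleotide carriers, Slc25a33 had 27.6 and 23.9 CPM in mutants and 24.7 and 23.0 CPM in controls, with overlapping groups (0.12 ± 0.09, adjusted p = 0.273). Slc25a36 had 32.7 and 31.2 CPM in mutants and 24.4 and 30.3 CPM in controls (0.23 ± 0.10, adjusted p = 0.0535). Control replicate 1 was the low library: the change was 0.07 without it and 0.38 without control replicate 2 (adjusted p = 0.0028). Slc25a36 also passed with upper quartile scaling (0.31, adjusted p = 0.0137), library totals alone (0.37, 0.00407), the filter of CPM above 1 in 2 libraries (0.25, 0.0412) and limma-voom (0.25, 0.0408).

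Of the 3 carriers tied to iron and glutathione, 2 were lower and 1 did not pass. Slc25a39, a glutathione importer needed for haem synthesis in zebrafish, had 213 and 195 CPM in mutants, against 253 and 249 CPM in controls (-0.30 ± 0.05, adjusted p = 7.2e-05). Its paralog Slc25a40 had 57 and 25 counts in mutants and 55 and 49 in controls (-0.19 ± 0.23, adjusted p = 0.519), about 1% of the pair's counts in each library. Slc25a28 (mitoferrin 2), the iron importer of tissues outside the erythroid line, had 45.1 and 38.6 CPM in mutants and 50.8 and 46.4 CPM in controls (-0.21 ± 0.08, adjusted p = 0.0444). The call ended without control replicate 1 (-0.15), without mutant replicate 2 (-0.10) and under library totals alone (-0.07, adjusted p = 0.489). It also ended with upper quartile scaling (-0.13, 0.194), the filter of CPM above 1 in 2 libraries (-0.19, 0.0724) and DESeq2 (-0.21, 0.107). The erythroid iron importer Slc25a37 fell further, with 421 and 397 CPM in mutants and 634 and 614 CPM in controls (-0.61 ± 0.04, adjusted p = 4.62e-09). Slc25a28 therefore made up 9.67% and 8.87% of the counts of the mitoferrins in mutants and 7.41% and 7.03% in controls, with lowest Wilson bounds of 9.16 and 8.22 in mutants and highest bounds of 7.81 and 7.46 in controls. These bounds cover counting error only and not the spread between pools. The glycine carrier Slc25a38 had 181 and 170 CPM in mutants and 361 and 340 CPM in controls, and its change of -0.99 ± 0.05 was below that of every member taken. The erythroid markers, lower in mutants by the summed level given above, moved the same way as these genes, and their part in the falls was not tested.

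The largest fold changes stood on few counts. Slc25a43, a carrier with no assigned substrate, had 44 and 21 counts in mutants and 7 and 5 in controls, which is 1.66 and 1.34 CPM in mutants, against 0.274 and 0.229 CPM in controls. The groups stood well apart (2.57 ± 0.39, adjusted p = 2.64e-05), and the change ran from 2.37 to 2.71 over all the alternatives tried. Slc25a27, related to the uncoupling proteins and known from brain, had 21 and 7 counts in mutants and 4 and 6 in controls (1.61 ± 0.53, adjusted p = 0.0145). Mutant replicate 1 was the high library. The call ended without it (1.06), without control replicate 1 (1.23) and with DESeq2 (1.55, adjusted p = 0.195). A gene as scarce as these in controls was tested only if mutants expressed it. Markers of granulocytes and monocytes had a summed level of 99.0 and 97.2 CPM in mutants and 45.6 and 51.2 CPM in controls, with 6 of 7 higher and 1 lower. Megakaryocyte markers had 251 and 244 CPM in mutants and 85.2 and 86.1 CPM in controls, with 4 of 5 higher and 1 lower. Among all genes tested, 28.3% were higher and 29.2% lower. The part of these markers' cells in the rises of Slc25a43, Slc25a27 and Slc25a45 was not tested.

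Slc25a46, the outer membrane member tied to mitochondrial fission, had 99.9 and 99.1 CPM in mutants, against 76.4 and 83.6 CPM in controls (0.32 ± 0.06, adjusted p = 2.05e-04). The remaining members related to uncoupling proteins did not pass: Slc25a14 had 10.7 and 11.4 CPM in mutants and 10.6 and 8.94 CPM in controls (0.16 ± 0.12), and Slc25a30 had 25.9 and 28.2 CPM in mutants and 29.0 and 29.6 CPM in controls (-0.12 ± 0.08).

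Levels can be set beside each other only per length. Per kilobase of exon in GENCODE M21, which is an approximation because the authors' gene models are not those, Slc25a4 led the members in mutants, with 134 CPM per kilobase, followed by Slc25a3 with 111, Slc25a1 with 76.3, Slc25a39 with 74.0 and Slc25a11 with 69.8. In controls Slc25a3 had 146, Slc25a4 and Slc25a1 had 123 each, Slc25a39 had 91.1 and Slc25a11 had 63.5. The lowest tested members per kilobase were Slc25a27 in both groups, with 0.157 in mutants and 0.0548 in controls. In CPM, 13 members stayed under 10 CPM in both groups. Slc25a5 was among them, with 2.59 CPM per kilobase in mutants and 2.43 in controls. Its level is uncertain because of the sequence it shares with other genes, so where it ranks among the members cannot be told.

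Genes that work beside the carriers were lower more often than higher on the TMM scale. Of all genes tested, 29.2% were lower and 28.3% higher, with a median log2 fold change of 0.01. That median was 0.15 with library totals alone. These lists were compiled with earlier results of these data known, and the difference between any list and the carriers was not tested. Of 5 tested family genes with other symbols, Ucp2 (-0.50) and Mcart1 (-0.53), whose product carries NAD+, were lower, and Mtch1 (0.09), Mtch2 (0.11) and Mcart6 (-0.27) did not pass. Mtch1 and Mtch2 passed as higher with upper quartile scaling (0.17 and 0.19), library totals alone (0.23 and 0.25) and the filter of CPM above 1 in 2 libraries (0.12 and 0.13). Ucp2, an uncoupling protein relative, had 584 and 521 CPM in mutants, against 813 and 754 CPM in controls. Of 13 genes of the machinery that imports carriers, 8 were lower, 1 was higher and 4 did not pass, with a median of -0.17. The outer membrane pore gene Tomm40 had the largest fall (-0.71 ± 0.05, adjusted p = 9.52e-10), and the receptor gene Tomm70a, which binds carrier precursors, the only called rise (0.11 ± 0.04, adjusted p = 0.0263). This count depended on the scaling and the libraries: 4 genes were lower with upper quartile scaling, 3 with library totals alone, and 4 without mutant replicate 1, 5 without mutant replicate 2 and 5 without control replicate 2. The Tomm70a call was lost whichever library was left out (0.09 to 0.12), with DESeq2 (0.11, adjusted p = 0.0692) and without a filter (0.08, 0.196).

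Of 14 other mitochondrial transporters and channels, 7 were lower and 1 higher, with a median of -0.22. With library totals alone 5 of them were lower and 1 higher. Vdac3, an outer membrane channel, fell furthest (-0.60 ± 0.18, adjusted p = 0.00962), and the sideroflexin gene Sfxn5 rose (0.67 ± 0.15, adjusted p = 0.00128). Vdac3 no longer passed when mutant replicate 1 (-0.58) or control replicate 2 (-0.51) was left out, nor with DESeq2 (-0.61, adjusted p = 0.116). Of 15 enzymes that make or use what the carriers move, 10 were lower and 2 higher, with a median of -0.24; without control replicate 1 only 1 was higher, and with library totals alone 7 were lower and 4 higher. Crat, the carnitine acetyltransferase, fell furthest (-0.71 ± 0.06, adjusted p = 5.92e-08), and Glud1, glutamate dehydrogenase, had the largest rise (0.35 ± 0.05, adjusted p = 1.88e-05). Around the acylcarnitine carrier Slc25a20, which did not pass, the transferase genes Cpt1a (-0.49) and Cpt2 (-0.32) were lower. Oat, an ornithine enzyme of the matrix, fell by 0.52 while the ornithine carrier Slc25a15 was higher. In the malate-aspartate shuttle the mitochondrial enzymes Mdh2 (-0.45) and Got2 (-0.32) were lower, and the cytosolic Mdh1 (0.01) and Got1 (-0.14) did not pass. Among its carriers Slc25a12 was higher (0.23) and Slc25a13 did not pass (-0.12). Slc25a11 was slightly higher (0.14), a call that ended with DESeq2 and when control replicate 2 or either mutant replicate was left out. Of 15 genes of mitochondrial biogenesis and fission, 9 were lower and 1 higher, with a median of -0.19. With library totals alone 7 of them were lower and 2 higher. Polrmt, the mitochondrial RNA polymerase, fell furthest (-0.52 ± 0.06, adjusted p = 4.32e-07). The fission gene Dnm1l rose (0.17 ± 0.06, adjusted p = 0.0284). That call ended when either mutant replicate or control replicate 1 was left out. The change was then 0.16 and 0.18 without mutant replicates 1 and 2, and 0.13 without control replicate 1. The Dnm1l call also ended with DESeq2 (0.17, adjusted p = 0.104) and without a filter (0.13, 0.134).

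**Figure D4:**
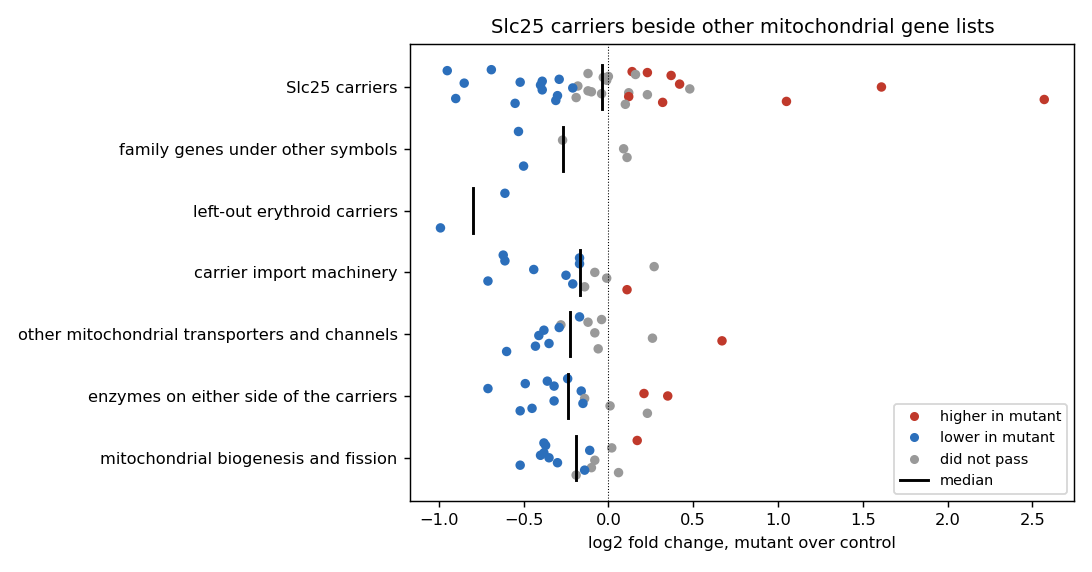
Log2 fold change of mutant over control for the 37 tested Slc25 members and for 6 other lists of mitochondrial genes; each point is a gene, colours give the call and black bars the median. The members' median of -0.04 lies right of the medians of the other 6 lists, which run from -0.80, for the 2 left-out carriers, to -0.17. Only 3 members, Slc25a45 and the scarce Slc25a43 and Slc25a27, reach beyond 1. Of all genes tested, 11.7% were called higher beyond 2-fold.

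The authors' deposited table lists 38 of the members and gives 13 of them as higher and 9 as lower at an FDR of 0.05, where the same table has 37.7% of its 13234 genes higher and 17.7% lower. Its log2 fold changes lay above those computed here with TMM scaling by a median of 0.14 and differed by 0.04 at most, with a median difference of 0.00, from those computed with library totals alone. Between the table and the TMM fit, 29 of 37 members had one and the same call, with 0 opposite calls. In the authors' deposited table Slc25a28, Slc25a39 and Slc25a44 did not pass (log2 fold changes -0.07, -0.16 and -0.17), and Slc25a29, Slc25a36, Slc25a14 and Slc25a33 passed as higher (0.62, 0.37, 0.30 and 0.26). The falls of Slc25a10 (-0.81), Slc25a42 (-0.77), Slc25a23 (-0.72) and Slc25a1 (-0.56) and the rises of Slc25a43 (2.74) and Slc25a45 (1.20) are in the authors' deposited table as well.

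The labels do not say whether the counting used strand. In GENCODE M21 the exons of 11 members overlap those of a gene on the opposite strand, 7 of them called, among these Slc25a10, Slc25a11, Slc25a21, Slc25a23, Slc25a25 and Slc25a46. The shared stretch was 228 of 3455 exon bases for Slc25a10 and 189 of 2120 for Slc25a11, which overlaps Rnf167. Reads from such stretches cannot be assigned without strand.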

How the data were processed

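The authors deposited whole-number counts per Ensembl gene for 4 libraries, per the file headers. The authors' deposited table of results gives log2 fold changes of mutant over WT and p-values, per its header. Per the submitters' processing notes, mm9 was the build and the tools were FastQC, Bowtie and edgeR; versions are not given in the sources used here. The WT columns were taken as the control samples of like number, as no other group besides the mutant has columns. The 12 mitochondrial rows holding NA in every library were left out of 35939.

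The test used edgeR 4.0.16 (R 4.3.3, limma 3.58.1). The filter filterByExpr kept 13140 genes; TMM scaling, robust glmQLFit and glmQLFTest of mutant over control, two-sided and Benjamini-Hochberg adjusted, followed. The dispersion common to all genes, 0.00232, equals a variation of 4.81% between libraries, so small changes pass. Libraries of a group differed beyond counting noise (chi-square per gene 3.67 in mutants and 5.76 in controls), so each counted as 1. Standard errors were derived from F and the log2 fold change. The fit was also run on simulated counts in which every gene had the common dispersion and few genes changed. Such counts are unlike these data, so the run does not bear on the small changes called here. Alternatives were RLE, upper quartile and total scaling, 2 other filters, DESeq2 1.42.0, limma-voom, a 1.5-fold limit, a replicate block, and leaving out each library, which makes a lone library that is assumed to vary like the others. Exon lengths, overlaps and shared 36-base words came from GENCODE M21, promoter sequences from RefSeq on GRCm38.p6.

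The members, the lists and the rule for named genes were chosen with earlier results of these data known. Every member may be named; of each other list, those with the largest called rise and fall are named, and others were added after their values were seen. Mesenchymal markers were 5 of 5 higher and endothelial markers 3 of 4, where 28.3% of all genes tested were higher. The mesenchymal markers summed to 16.9 and 15.5 CPM in mutants and 4.54 and 4.72 CPM in controls. The endothelial markers summed to 20.8 and 21.1 CPM in mutants and 6.37 and 6.10 CPM in controls. The values of 1 member and 1 enzyme that entered the tests and counts are not reported here by name.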

Additional observations from a re-analysis of the deposited data

How the results depend on the processing

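Of the 22 called members, 15 (10 lower and 5 higher) kept their call and direction in each of the 12 alternatives other than the 1.5-fold limit; among the 7 that did not were Slc25a4, Slc25a11, Slc25a24, Slc25a27, Slc25a28 and Slc25a47, the last with DESeq2 only (-0.56, adjusted p = 0.0791). Calls with the 1.5-fold limit were 3 members higher and 4 lower, and 3110 genes, 2213 higher and 897 lower. DESeq2 called 5 members higher. Library totals alone gave 2553 genes lower and 5112 higher, and upper quartile scaling 3088 and 4423, against 3835 and 3723. The members' median was 0.04 with upper quartile scaling, 0.10 with library totals alone, -0.14 without a filter, -0.09 with CPM above 1 in 2 libraries, -0.10 with DESeq2 and -0.08 with limma-voom. With 1 library left out it ran from -0.11 to -0.06, with 5 to 7 members higher, 5 of them without mutant replicate 1, and 11 to 13 lower. Members near 0 that did not pass changed sign: with upper quartile scaling Slc25a17 and Slc25a18 (0.05 each), Slc25a20 (0.07) and Slc25a35 (0.04); with library totals alone Slc25a13 (0.02), Slc25a17 and Slc25a18 (0.11 each), Slc25a20 (0.13), Slc25a30 (0.01), Slc25a32 (0.04) and Slc25a35 (0.10); Slc25a16 with RLE (-0.00), no filter (-0.04) and limma-voom (-0.01); and Slc25a20 with the CPM filter (0.01). With 1 library left out Slc25a16 ran from -0.09 to 0.11, Slc25a18 from -0.52 to 0.44, Slc25a20 from -0.02 to 0.02 and Slc25a35 from -0.52 to 0.20. The cause was not tested. The replicate numbers are shared between groups, but no label says that they pair the pools; same-numbered libraries deviated together with a correlation of 0.11 over genes. With the number as a replicate block 10 members were higher and 14 lower, with a median of -0.07, and 8402 genes were called; Slc25a13 (-0.12, adjusted p = 0.0193), Slc25a36 (0.25, 0.00278), Mtch1 (0.09, 0.0274) and Mtch2 (0.11, 0.0375) gained a call. Depth limits Slc25a18, Slc25a27, Slc25a35 and Slc25a43, each under 100 counts in all.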
